A study of Homo sapiens with 12 samples.

Results

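The genes described here encode the protein subunits of oxidative phosphorylation, in spheroids that HepG2 cells, a line from a human liver carcinoma, had formed over 10 days. Members were chosen by gene name alone: complex I (NDUFA, NDUFB, NDUFC, NDUFS and NDUFV genes), complex II (SDH), complex III (UQCR genes and CYC1), complex IV (COX4 to COX8 genes) and complex V (ATP5 genes). The name rule left out complex I assembly factors (NDUFAF) and pseudogenes, and 1 probe set per gene, the brightest over the 12 arrays, was used. It found 80 of the 18404 genes measured by a probe set with a single gene symbol: 33 of complex I, 3 of complex II, 8 of complex III, 17 of complex IV and 18 of complex V. The remaining member, NDUFV1-DT, is a non-coding transcript beside NDUFV1 that shares only the name and is no subunit. The others were placed in a complex by name alone, and not all need be subunits: ATP5IF1, counted with complex V, is its inhibitor. NDUFS5, NDUFC2, ATP5F1E and UQCRHL lie in probe sets with several symbols and were left out, and SDHB was not analysed here. Of the 13 subunits that mitochondrial DNA encodes, 0 were measured.

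The arrays fall into 3 groups of 4: HIF-1α knockdown, HIF-2α knockdown and wild type HepG2 spheroids, each group from 4 different spheroid experiments. HIF-1α (gene HIF1A) and HIF-2α (gene EPAS1) are the subunits through which hypoxia-inducible transcription factors respond to oxygen. The sources used here do not give how the knockdowns were made, if each was 1 clone, or if wild type cells had a control construct. All groups grew in stirred flasks, and all RNA was amplified before labelling.

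Complexes I to IV pass electrons from NADH and succinate to oxygen. Complexes I, III and IV, but not complex II, pump protons across the inner mitochondrial membrane. Complex V, the ATP synthase, makes ATP as the protons flow back. Complexes I, III, IV and V are built from proteins of both the nuclear and the mitochondrial genome, while all subunits of complex II are nuclear. HIF-1 is known for turning cells away from respiration in low oxygen, through PDK1, which keeps pyruvate out of the mitochondrion, through the complex IV isoform COX4I2, and through BNIP3 and BNIP3L, which mark mitochondria for removal.

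Values are on a log2 scale, n = 4 arrays per group throughout, and a difference is the mean of the first named group minus that of the second. Tests are limma fits over all 18404 genes with Benjamini-Hochberg adjustment, and a gene is called changed at an adjusted p below 0.05. HIF1A measured 9.25, 9.58, 9.38 and 9.64 in HIF-1α knockdown spheroids, against 10.74, 10.64, 10.79 and 10.62 in wild type, a difference of -1.23 (SE 0.15, adjusted p = 0.00241). EPAS1 measured 9.67, 10.02, 9.87 and 9.98 in HIF-2α knockdown spheroids, against 10.96, 10.83, 10.97 and 11.26 in wild type, a difference of -1.12 (SE 0.09, adjusted p = 0.000206). Each targeted gene was thus lower in its own knockdown with no overlap of arrays, and the other HIF gene was not called changed in either knockdown. The mean of 9 hepatocyte markers lay between 11.75 and 12.03 in HIF-1α knockdown, 12.06 and 12.67 in HIF-2α knockdown, and 12.27 and 12.73 in wild type. Of 4 endothelial markers, 0 were called in any comparison, and whether the spheroids held endothelial cells was not tested. The mean of the 4 lay below the median of every array. It was between 7.18 and 7.23 in HIF-1α knockdown, 7.05 and 7.08 in HIF-2α knockdown, and 7.09 and 7.18 in wild type. The groups did not overlap on this mean, though HIF-1α knockdown and wild type nearly touched. That of 5 fibroblast markers lay between 7.18 and 7.23, 7.02 and 7.16, and 7.18 and 7.23 in the same groups, and PDGFRB was called lower in HIF-2α knockdown than in wild type (-0.40, adjusted p = 0.0109) and than in HIF-1α knockdown (-0.35, 0.0105). That of 5 leukocyte markers lay between 8.59 and 8.88 on all arrays, with LYZ bright and PTPRC at 6.41 to 6.70, and CD14 was called lower in HIF-2α than in HIF-1α knockdown (-0.39, adjusted p = 0.00899). These 3 calls were lost in 1 of 19 other settings, without the raised-floor arrays (adjusted p = 0.0974, 0.0553 and 0.0555). Their part in the members' differences was not tested. On 3 arrays the floor was raised (HIF-2α knockdown replicate 4, wild type replicates 1 and 2): their lowest 0.1% of probe set values ended at 6.33 to 6.35, against 6.11 to 6.23 on the others. In these bulk samples, fewer cells of a kind and less RNA per cell cannot be told apart.

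In HIF-1α knockdown, 1 of the 80 members was called changed, COX5A, which was lower. Of all genes, 0.962% were called in this comparison, 0.147% as lower and 0.815% as higher. At an unadjusted p below 0.05 there were 12 members, or 15% of them, against 13.2% of all genes. The arrays of the 2 groups did not overlap for 7 members, or 8.75%, against 7.84% of all genes; both shares are close to those of all genes. The median member difference was -0.04, against 0.005 over all genes, and 52 members, or 65%, had a mean below that of wild type, against 48% of all genes. The plot of differences by complex shows where they lie: the median was 0.002 in complex I, -0.01 in complex II, -0.15 in complex III, -0.03 in complex IV and -0.09 in complex V. In complex III 7 of 8 and in complex V 15 of 18 members had the lower mean in HIF-1α knockdown, but no member of either was called changed.

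**Figure D1:**
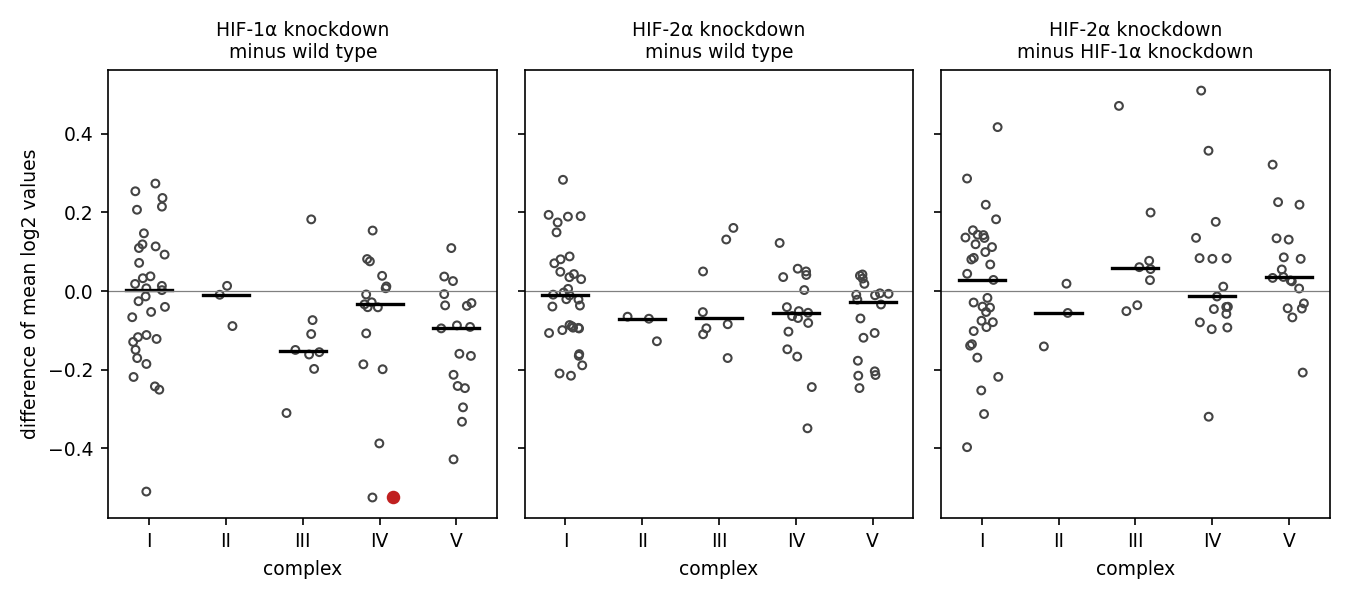
Each point is 1 gene: the difference of mean log2 values (y axis) by respiratory complex (x axis), in the 3 comparisons; bars are medians and the filled point is the gene called changed. COX5A, in complex IV, is that gene, at -0.52 in HIF-1α knockdown against wild type; the complex medians lie between -0.15 and 0.06 in all 3 panels.

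COX5A encodes a nuclear subunit of complex IV, cytochrome c oxidase, on the matrix side of the enzyme. It measured 10.76, 10.71, 10.99 and 10.59 in HIF-1α knockdown, and 10.97, 11.10, 11.01 and 11.39 in HIF-2α knockdown. In wild type it measured 11.31, 11.14, 11.46 and 11.24. Every HIF-1α knockdown array thus lay below every wild type array, while the HIF-2α knockdown arrays overlapped both groups. The difference between HIF-1α knockdown and wild type was -0.52 (SE 0.10, 95% interval -0.75 to -0.30, adjusted p = 0.0326), or 1.44-fold lower. HIF-2α knockdown differed from wild type by -0.17 (adjusted p = 0.589) and from HIF-1α knockdown by 0.36 (adjusted p = 0.097). COX5A kept its direction in the 20 other settings run, from -0.60 to -0.47, but its adjusted p then ranged from 0.00938 to 0.109. It was no longer called when any of HIF-1α knockdown replicate 1, 2 or 4 or wild type replicate 1 or 4 was left out (adjusted p between 0.0631 and 0.109), when arrays were centred on their medians (0.0802), or without the 3 arrays with a raised floor (0.108).

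The promoters of COX5A and of UQCR11 and COX6A1, members of complexes III and IV with large differences, are shown because HIF binds the core letters ACGTG. The windows run from 250 bases before to 50 bases after the annotated start, 5′ to 3′ on the gene's strand, from RefSeq on GRCh38.p14. Capitals mark matches on either strand to ACGTG, to GCGC followed by any base and TGCGC, known as an NRF1 motif, and to CCGGAAG, known as a motif of GABP and other ETS factors, both known regulators of respiratory genes. COX5A lies at chr15:74938024-74938323 (minus strand), UQCR11 at chr19:1605413-1605712 (minus strand) and COX6A1 at chr12:120437863-120438162 (plus strand).
COX5A: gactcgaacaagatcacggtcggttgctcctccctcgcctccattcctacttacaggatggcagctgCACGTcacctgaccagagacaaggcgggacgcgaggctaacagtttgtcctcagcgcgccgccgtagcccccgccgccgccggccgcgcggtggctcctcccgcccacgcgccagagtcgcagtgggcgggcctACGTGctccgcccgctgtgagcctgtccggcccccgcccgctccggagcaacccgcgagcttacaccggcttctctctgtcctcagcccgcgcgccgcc
UQCR11: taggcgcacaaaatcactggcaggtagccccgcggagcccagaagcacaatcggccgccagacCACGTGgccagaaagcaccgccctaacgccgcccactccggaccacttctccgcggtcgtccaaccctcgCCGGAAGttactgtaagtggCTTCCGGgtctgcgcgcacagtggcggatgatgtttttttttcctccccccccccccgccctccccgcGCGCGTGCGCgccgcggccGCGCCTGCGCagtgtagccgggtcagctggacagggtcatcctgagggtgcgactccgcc
COX6A1: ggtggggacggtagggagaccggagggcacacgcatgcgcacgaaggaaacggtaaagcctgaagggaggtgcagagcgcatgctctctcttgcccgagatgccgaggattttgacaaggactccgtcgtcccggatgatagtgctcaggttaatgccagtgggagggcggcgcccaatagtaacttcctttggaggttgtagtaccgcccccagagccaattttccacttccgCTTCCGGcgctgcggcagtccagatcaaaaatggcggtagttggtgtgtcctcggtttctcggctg
The COX5A window holds ACGTG at 2 places and neither of the other motifs. In UQCR11 the capitals CACGTG are a single palindrome that matches ACGTG on both strands, and the window also holds 2 matches each to the NRF1 and ETS motifs. The COX6A1 window holds 1 ETS match and neither of the other motifs. A window was found for 66 members. ACGTG occurred in 17 of them (25.8%), against 23.7% of the windows of 15843 protein-coding genes, so that these letters were about as common here as elsewhere. Only ACGTG was searched, so other forms of the HIF core were not counted. The NRF1 motif occurred in 16 (24.2%, against 8.58%) and the ETS motif in 19 (28.8%, against 14.2%). These are letter matches in short windows, not binding sites.

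COX6A1, the widely expressed isoform of a further complex IV subunit, had the largest member difference in HIF-1α knockdown. It measured 12.73, 12.89, 13.12 and 12.79 there, against 13.54, 13.29, 13.69 and 13.12 in wild type. The highest HIF-1α knockdown array thus reached the lowest wild type array. The difference was -0.53 (SE 0.13, adjusted p = 0.0754), and in HIF-2α knockdown, at 12.79, 13.12, 13.04 and 13.28, it was -0.35 (adjusted p = 0.273). A second COX6A1 probe set gave -0.37 and -0.22. The gene is among the 5 members with a mean level of 12 or more, whose differences depend on how arrays are scaled: after quantile normalization COX6A1 differed by -0.07 between HIF-1α knockdown and wild type. All 221 genes at that level had a median difference of -0.25 in the deposited values and 0.06 after quantile normalization. COX5A, at a lower level, differed by -0.56 after quantile normalization.

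NDUFA1, a small accessory subunit of complex I encoded on the X chromosome, measured 8.87, 9.09, 9.25 and 9.07 in HIF-1α knockdown. It measured 9.57, 9.39, 9.70 and 9.66 in wild type. The groups did not overlap, and the difference of -0.51 (SE 0.17) was not called (adjusted p = 0.189). In HIF-2α knockdown, replicate 1 lay at 8.81, below every HIF-1α knockdown array, and the other 3 arrays at 9.84, 9.74 and 9.55, in or above the wild type range. With that array left out of the shared fit, the difference between HIF-1α knockdown and wild type was called (-0.51, adjusted p = 0.0191). So was that between HIF-2α and HIF-1α knockdown (0.64, adjusted p = 0.00484). Of the 20 other settings, this was the only 1 with either call, and the adjusted p reached 0.384 and 0.588.

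**Figure D2:**
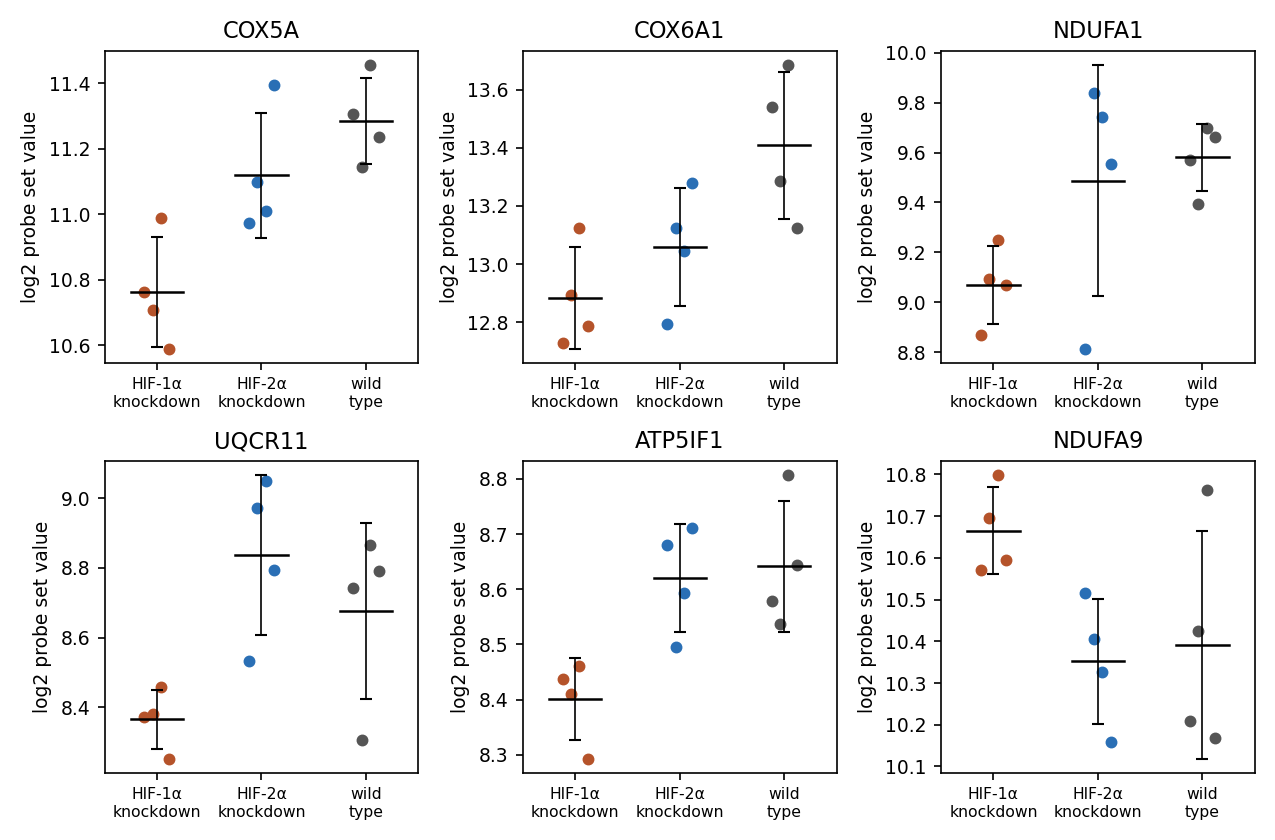
Log2 probe set values (y axis, each panel on its own scale) of 6 members on the 12 arrays, by group (x axis); the long line is the mean and the error bar the SD (n = 4). For COX5A, NDUFA1 and ATP5IF1 all HIF-1α knockdown arrays lie below all wild type arrays, and 1 HIF-2α knockdown array of NDUFA1, at 8.81, lies far below the other 3.

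Of the other complex I members, NDUFB2 and NDUFS6, both accessory subunits, also had no overlap between HIF-1α knockdown and wild type. NDUFB2 lay between 8.36 and 8.42 in HIF-1α knockdown and between 8.45 and 8.85 in wild type (difference -0.24, adjusted p = 0.353). NDUFS6 lay between 8.52 and 8.58 in HIF-1α knockdown and between 8.63 and 8.86 in wild type (difference -0.22, adjusted p = 0.156). The highest difference of any member was that of NDUFA9, an accessory subunit of the arm that reduces ubiquinone. It measured 10.57, 10.70, 10.80 and 10.59 in HIF-1α knockdown, against 10.21, 10.43, 10.76 and 10.17 in wild type. The difference was 0.27 (SE 0.12, adjusted p = 0.32), with wild type replicate 3 alone among the HIF-1α knockdown values. Without that array it was 0.40 (adjusted p = 0.0398), the only call in the 20 other settings, where the adjusted p reached 0.668. Complex I thus held differences of both signs, with 17 members above and 16 below wild type in HIF-1α knockdown.

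The 3 measured subunits of complex II, succinate dehydrogenase, lay close to wild type in both knockdowns. SDHA, the flavoprotein that oxidizes succinate, measured 10.87, 10.77, 10.96 and 10.78 in HIF-1α knockdown, 10.81, 10.77, 10.67 and 10.56 in HIF-2α knockdown, and 10.83, 10.52, 11.02 and 10.97 in wild type. Its differences from wild type were 0.01 (95% interval -0.20 to 0.22) and -0.13 (95% interval -0.34 to 0.08). SDHC and SDHD, which anchor the enzyme in the membrane, differed from wild type by -0.09 and -0.01 in HIF-1α knockdown and by -0.07 and -0.07 in HIF-2α knockdown. SDHC, SDHD and the complex I gene NDUFV2 each have a second probe set, and copies of a gene with near-identical sequence can share probes, so these values are uncertain. The second probe sets gave 0.07 and 0.13 for SDHC, of the other sign, and 0.01 and -0.05 for SDHD, in HIF-1α and HIF-2α knockdown. The NDUFV2 probe sets disagreed in HIF-1α knockdown, at -0.11 for the one used and 0.33 for the other. In HIF-2α knockdown they gave 0.07 and 0.37. ATP5MK of complex V differed by 0.03 in both knockdowns, and its second probe set gave 0.07 and -0.19 in HIF-1α and HIF-2α knockdown.

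In complex III, UQCR11, a small subunit, separated the 2 knockdowns. It measured 8.37, 8.38, 8.46 and 8.25 in HIF-1α knockdown, 8.53, 8.97, 9.05 and 8.79 in HIF-2α knockdown, and 8.74, 8.31, 8.87 and 8.79 in wild type. All HIF-2α knockdown arrays lay above all HIF-1α knockdown arrays, and wild type replicate 2 lay among the HIF-1α knockdown values. HIF-2α knockdown differed from HIF-1α knockdown by 0.47 (SE 0.12, adjusted p = 0.0634), and HIF-1α knockdown differed from wild type by -0.31 (adjusted p = 0.281). The 0.47 was called in 6 of the 20 other settings, among them without HIF-2α knockdown replicate 1 (adjusted p = 0.0201) and without wild type replicate 2 (0.0221). UQCRB, the subunit that helps to bind ubiquinone, was the 1 member with all HIF-1α knockdown arrays above wild type, at 7.62 to 7.71 against 7.40 to 7.58 (difference 0.18, adjusted p = 0.136). UQCR10, UQCRH, UQCRC1, UQCRQ, UQCRC2 and CYC1, the cytochrome c1 of the complex, differed from wild type by -0.20 to -0.07 in HIF-1α knockdown.

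In complex V the members without overlap between HIF-1α knockdown and wild type were ATP5IF1 and ATP5PO. ATP5IF1, the inhibitor that stops the synthase from running in reverse, measured 8.44, 8.41, 8.46 and 8.29 in HIF-1α knockdown, 8.68, 8.49, 8.59 and 8.71 in HIF-2α knockdown, and 8.58, 8.54, 8.81 and 8.64 in wild type. The HIF-1α knockdown arrays lay below all arrays of both other groups. The difference from wild type was -0.24 (SE 0.07, adjusted p = 0.121), and HIF-2α knockdown differed from HIF-1α knockdown by 0.22 (adjusted p = 0.136). ATP5PO, part of the peripheral stalk, lay between 9.62 and 9.88 in HIF-1α knockdown and between 9.91 and 10.19 in wild type, a difference of -0.25 (adjusted p = 0.204). ATP5F1A, the alpha subunit of the catalytic head, measured 10.72, 10.90, 11.09 and 10.87 in HIF-1α knockdown, against 11.33, 11.06, 11.66 and 11.23 in wild type. Replicate 3 of HIF-1α knockdown lay just above replicate 2 of wild type, and the difference was -0.43 (SE 0.16, adjusted p = 0.232). ATP5MC1, of the membrane ring, and ATP5F1B, the catalytic beta subunit, differed by -0.33 and -0.30, but both are at a level of 12 or more, and after quantile normalization the differences were -0.02 and 0.04.

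In HIF-2α knockdown, limma called 0 of the 80 members, against 0.788% of all genes (0.31% lower and 0.478% higher). At an unadjusted p below 0.05 there were 5 members (6.25%, against 12% of all genes), and 1 member had no overlap of arrays, against 5.31% of all genes. The median member difference was -0.04, against -0.01 over all genes, and 53 of the 80 members (66.25%, against 55.4%) had a mean below that of wild type. The member without overlap was NDUFA5, an accessory subunit of complex I, at 8.27, 8.67, 8.26 and 8.35 in HIF-2α knockdown against 8.25, 8.19, 7.99 and 7.98 in wild type (difference 0.28, adjusted p = 0.245). The other end of the range was COX6A1. NDUFA7 of complex I differed by -0.22, UQCR10 of complex III by -0.17, COX6C of complex IV by -0.24 and ATP5MC1 and ATP5MG of complex V by -0.25 and -0.22. The smallest adjusted p among these 5 was 0.545. The 95% interval of a member's difference extended by 0.257 to either side in the median member, and by 0.0973 to 0.507 over all members. These intervals are not adjusted for the number of genes.

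Both comparisons with wild type use the same 4 wild type arrays. Between the knockdowns limma called 0 of the 80 members, against 2.77% of all genes (1.8% lower and 0.967% higher in HIF-2α knockdown). At an unadjusted p below 0.05 there were 9 members (11.25%, against 13.6% of all genes), and 4, or 5%, had no overlap, against 9.08% of all genes. The mean was lower in HIF-2α knockdown for 35 of the 80 members, against 55.3% of all genes. UQCR11 and ATP5IF1, given above, were higher in every HIF-2α knockdown array than in every HIF-1α knockdown array. NDUFA9 and NDUFB10, both of complex I, ran the other way, at 10.16 to 10.52 and 10.10 to 10.22 in HIF-2α knockdown against 10.57 to 10.80 and 10.23 to 10.53 in HIF-1α knockdown. Their differences were -0.31 and -0.22, with adjusted p-values of 0.224 and 0.375. NDUFS3, a core subunit of complex I, had the lowest difference, -0.40 (adjusted p = 0.201), and COX7A2 the highest, 0.51 (adjusted p = 0.362). COX7A2 measured 9.24, 10.36, 10.14 and 10.06 in HIF-2α knockdown, against 9.25, 9.52, 9.71 and 9.27 in HIF-1α knockdown, and replicate 1 of HIF-2α knockdown was the lowest of these.

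Several complex IV subunits and the membrane ring of complex V have alternative isoforms. COX4I2 is known as an oxygen-responsive alternative to COX4I1, COXFA4L2 (formerly NDUFA4L2) as a HIF target beside COXFA4, COX6A2 and COX7A1 as muscle isoforms, and COX6B2, COX7B2 and COX8C as isoforms of testis. COX4I2 measured 7.14, 7.23, 7.05 and 7.12 in HIF-1α knockdown, 7.19, 6.98, 7.18 and 7.12 in HIF-2α knockdown, and 7.22, 7.23, 7.16 and 7.09 in wild type. The 3 groups overlapped, below the median of every array, and the differences from wild type were -0.04 (95% interval -0.17 to 0.09) and -0.06 (95% interval -0.19 to 0.08). Without detection calls, it cannot be told whether COX4I2 was detected, so small differences here do not show that its expression was unchanged. COX4I1 differed by -0.11 and -0.15. COXFA4L2, which the name rule leaves out, lay between 7.13 and 7.47 on the 12 arrays and differed by -0.08 and -0.13. For each of the 9 isoform pairs measured, the difference between its 2 probe sets overlapped between all groups. COX6A2 minus COX6A1 moved the most against wild type, by 0.61 in HIF-1α knockdown, and COX6A2 itself differed by 0.08, so most of this is the COX6A1 difference that depends on the scaling. The 3 genes of the membrane ring, ATP5MC1, ATP5MC2 and ATP5MC3, make the same mature protein; ATP5MC3 lay between 7.34 and 7.49 on all arrays and differed by -0.03 and -0.01.

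**Figure D3:**
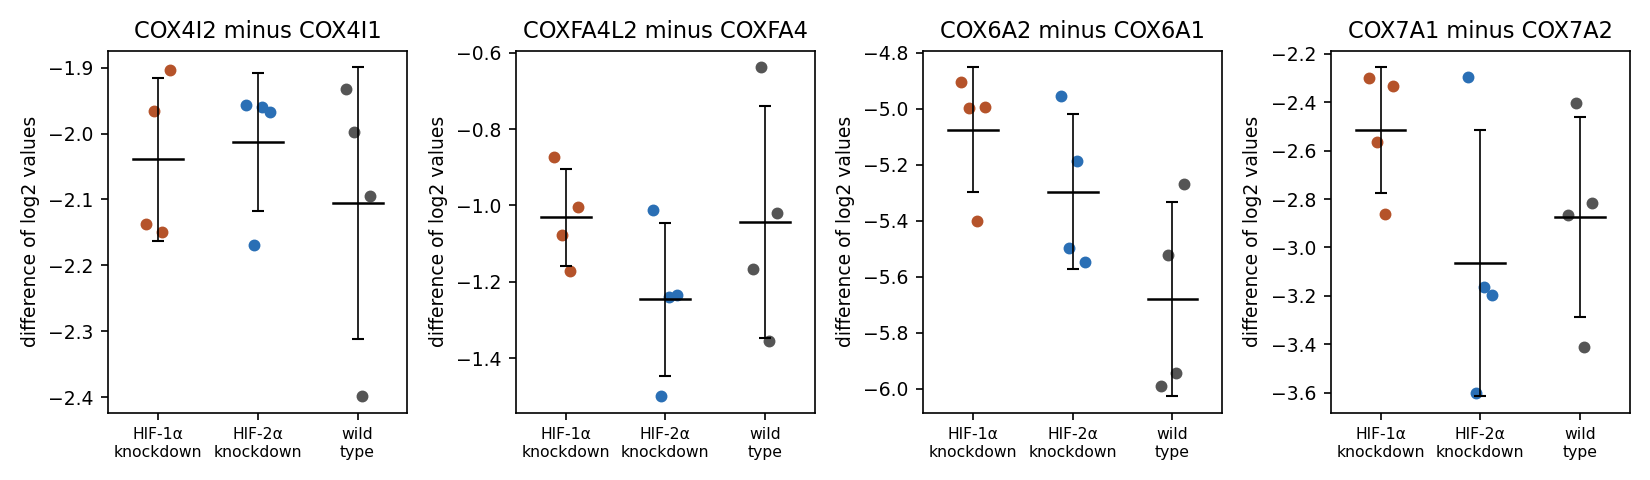
Difference between the log2 values of 2 isoforms on each array (y axis, each panel on its own scale), by group (x axis), with the mean as a long line and the SD as an error bar (n = 4). The groups overlap in all 4 panels; the height of a panel depends on the probe sets and does not say which isoform is more abundant.

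Larger than the differences between groups was the spread among the wild type arrays. Each member's deviation from its own mean over the 12 arrays was taken, and the median over the 80 members was -0.04, -0.04, 0.09 and -0.13 in HIF-1α knockdown replicates 1 to 4. It was -0.07, 0.05, 0.02 and 0.0004 in HIF-2α knockdown, and 0.01, -0.17, 0.32 and 0.03 in wild type. Wild type thus held both the lowest array, replicate 2, and the highest, replicate 3. Their distance of 0.496 exceeded the whole range within HIF-1α knockdown, 0.224, and within HIF-2α knockdown, 0.121. The group means were -0.03 ± 0.09, -0.001 ± 0.05 and 0.05 ± 0.20 (SD, n = 4).

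**Figure D4:**
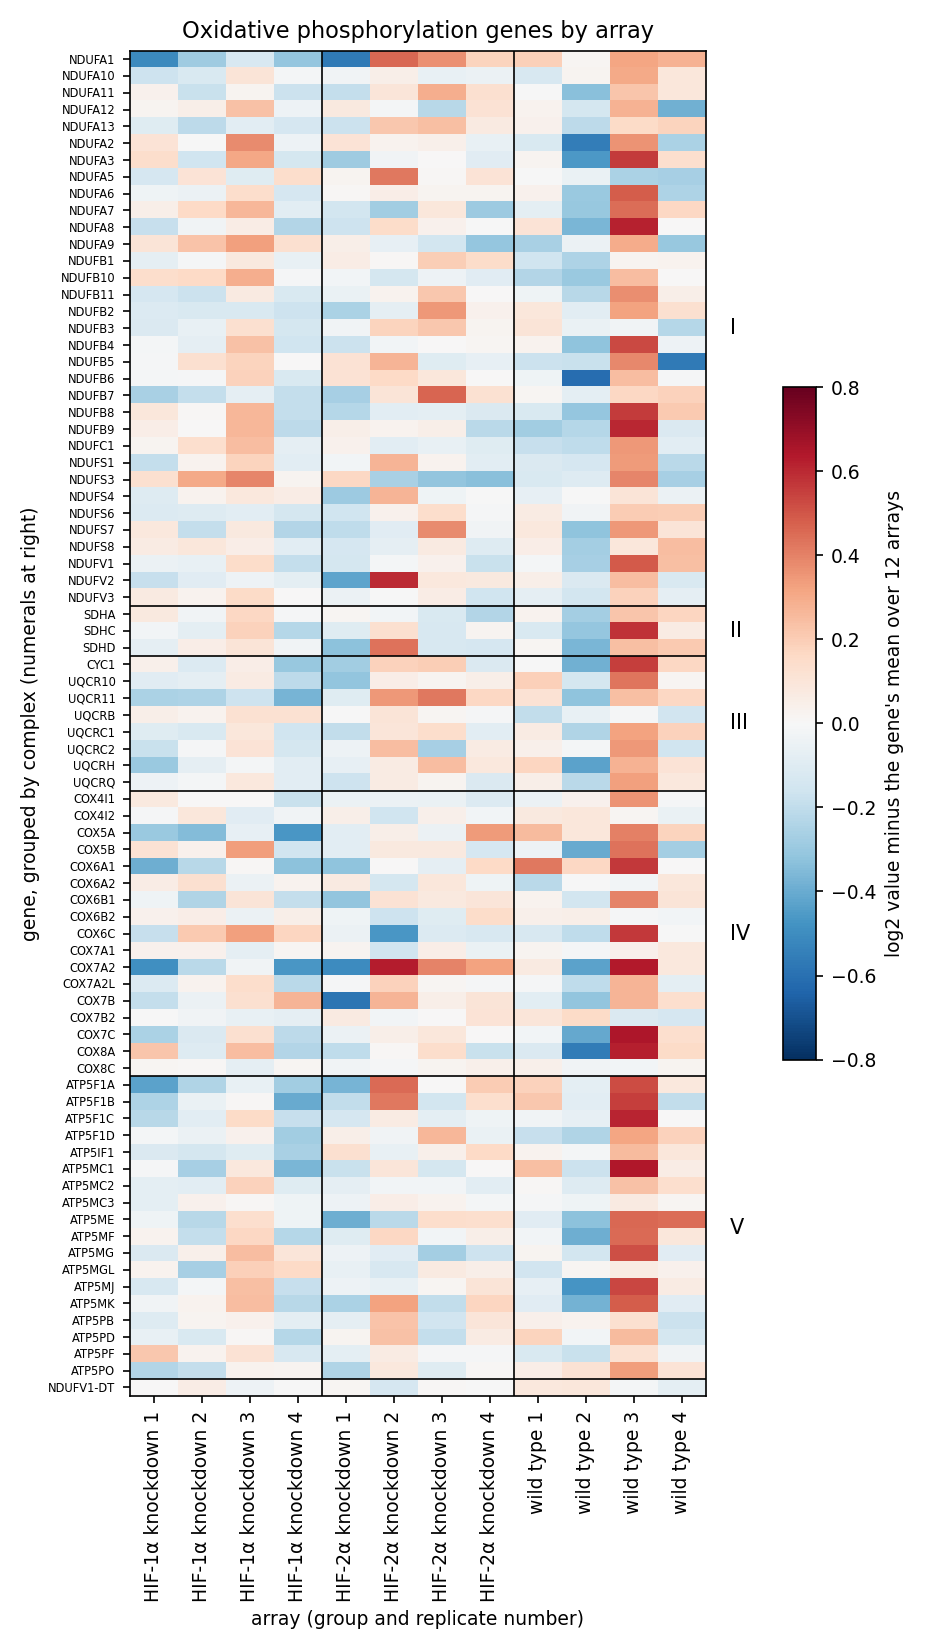
Each row is a gene and each column an array, with the respiratory complex at the right; colour is the log2 value minus the gene's mean over the 12 arrays. The column of wild type replicate 3 is high for most genes of every complex, and it is the highest of the 12 arrays for 51 of the 80 members.

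Wild type replicate 3 was the highest of the 12 arrays for 51 members (63.75%), against 8.48% of all genes, and the highest wild type array for 67 members (83.75%), against 28.0% of all genes. It was the highest of 12 for 18 of 33 members of complex I, 2 of 3 of complex II, 6 of 8 of complex III, 10 of 17 of complex IV and 15 of 18 of complex V. Part of this holds for bright genes at large: at a mean level of 10 to 12 it was the highest of 12 for 26.7% of all 1707 genes, against 27 of the 32 members there (84.4%). The median deviation on that array was 0.44 for these 32 members and 0.15 for the 1707 genes. All 221 genes with a mean level of 12 and over had a median deviation of 0.37 on it, against 0.55 for the 5 members there. Cytosolic ribosomal proteins, at 0.46, were as high on it as the members of level 10 to 12 were. The members with a mean level under 8 did not follow, with a median deviation of 0.004 over 14 genes. Over all genes, its deviations from the group mean correlated at 0.64 with those of HIF-1α knockdown replicate 3. With those of HIF-2α knockdown replicate 3 they correlated at -0.03. HIF-1α knockdown replicate 3 was also the highest array of its group for the members, at 0.09. What sets wild type replicate 3 apart was not tested. By its floor, 6.13, it is not among the 3 arrays with a raised floor.

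**Figure D5:**
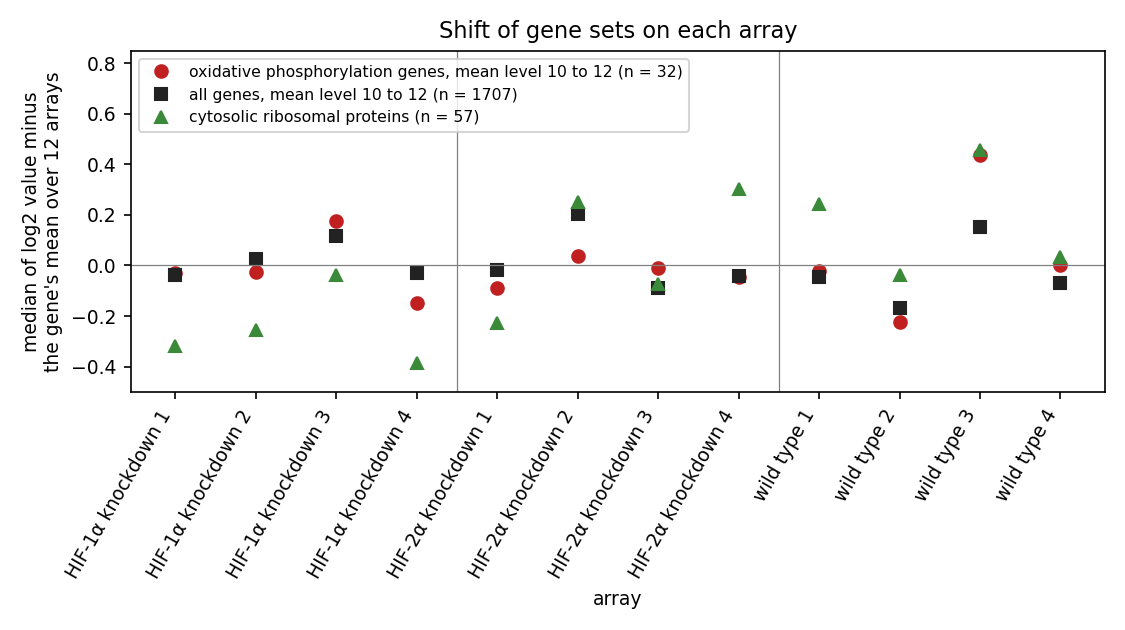
Median over a gene set of the log2 value minus each gene's mean over the 12 arrays (y axis), for every array (x axis). On wild type replicate 3 the respiratory genes of mean level 10 to 12 lie at 0.44, above all genes of that level at 0.15. The ribosomal proteins lie at 0.46 there, but their mean was between 11.47 and 12.27 on the arrays. All genes of level 12 and over, not plotted, had 0.37 on that array. On all 4 HIF-1α knockdown arrays the ribosomal proteins lie below the respiratory genes.

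The median member difference followed the wild type arrays used. Without wild type replicate 3 it was 0.004 in HIF-1α knockdown and 0.05 in HIF-2α knockdown, so that its sign turned in both. Leaving out the 3 raised-floor arrays, so that wild type kept replicates 3 and 4, it was -0.21 and -0.19. The medians of complexes III and V in HIF-1α knockdown, -0.15 and -0.09, became -0.04 and -0.02 without wild type replicate 3, and -0.30 and -0.32 without the 3 raised-floor arrays. After quantile normalization they were -0.20 and -0.08. Among genes beside the members, 56 of 57 ribosomal proteins had a mean below wild type in HIF-1α knockdown, with a median difference of -0.41 in the deposited values and -0.19 after quantile normalization. Of these, 1, RPL11, was called, and in 11 of 20 other settings (adjusted p from 0.00639 to 0.204). Its call was lost without any 1 of the HIF-1α knockdown replicates or of wild type replicates 1, 2 and 4, with median centring, and without the raised-floor arrays. The 9 measured hepatocyte markers had a median of -0.47 in the deposited values and -0.18 after quantile normalization, so this median too depends on the scaling. Among them FGB, a fibrinogen chain, was called lower at -1.75 (adjusted p = 9.03e-06). In HIF-2α knockdown the medians of the ribosomal proteins and the hepatocyte markers were -0.09 and -0.14 in the deposited values. FGB was called higher there, at 0.63 (adjusted p = 0.0196). This call was kept in 15 of 20 other settings (adjusted p from 0.00395 to 0.208) and lost without wild type replicate 2 or 4, with median centring, with array weights, and without the raised-floor arrays. The part of these shifts in the member differences was not tested.

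Of the 44 measured assembly factors of the respiratory complexes, 1 was called higher and 0 lower in HIF-1α knockdown, with a median difference of 0.09. It was NDUFAF1, an assembly factor of complex I, at 7.78, 8.03, 8.03 and 7.88 in HIF-1α knockdown, 7.78, 7.40, 7.47 and 7.36 in HIF-2α knockdown, and 7.46, 7.33, 7.67 and 7.33 in wild type. All HIF-1α knockdown arrays lay above all wild type arrays, and the difference was 0.48 (SE 0.10, adjusted p = 0.0423), or 1.40-fold. HIF-2α knockdown differed from HIF-1α knockdown by -0.43 (adjusted p = 0.0409). Both directions held in the 19 other settings run, but the first call was kept in 9 of them (adjusted p from 0.00641 to 0.273) and the second in 10 (from 0.0076 to 0.209). The first was lost without HIF-1α knockdown replicate 2, 3 or 4, HIF-2α knockdown replicate 3, or wild type replicate 1, 2 or 4 (adjusted p between 0.0541 and 0.146). The second was lost without HIF-1α knockdown replicate 2, 3 or 4, HIF-2α knockdown replicate 2, 3 or 4, or wild type replicate 1 (adjusted p between 0.0623 and 0.144). SCO1 and COX10, assembly factors of complex IV, differed from wild type by 0.26 (adjusted p = 0.0843) and 0.18 (0.115). In HIF-2α knockdown 0 of the 44 were called, with a median of 0.06.

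Of the 8 HIF-linked regulators of respiration, 0 were called by limma in either knockdown. PDK1, which inhibits pyruvate dehydrogenase, came closest, at 9.07, 9.24, 9.42 and 9.14 in HIF-1α knockdown, 9.46, 9.71, 9.73 and 9.26 in HIF-2α knockdown, and 9.67, 9.74, 10.29 and 9.66 in wild type. HIF-1α knockdown lay below wild type on all arrays, with a difference of -0.62 (SE 0.14, adjusted p = 0.0588), and HIF-2α knockdown differed by -0.30 (adjusted p = 0.426). In HIF-1α knockdown PDK1 was called in 7 of 20 other settings. BNIP3L, of mitophagy, differed by -0.50 (adjusted p = 0.0639) in HIF-1α and -0.24 (0.445) in HIF-2α knockdown, and was called in 5 of 20 other settings in HIF-1α knockdown and in 0 in HIF-2α knockdown. LONP1, the protease that degrades the COX4I1 protein in low oxygen, differed by -0.11 and -0.01. Of 11 measured genes of the tricarboxylic acid cycle and 12 of mitochondrial biogenesis, 0 were called by limma against wild type. Their medians were 0.10 and 0.09 in HIF-1α knockdown and 0.09 and -0.04 in HIF-2α knockdown. Those with the smallest p in HIF-1α knockdown were IDH3A, a subunit of isocitrate dehydrogenase, at 0.42 (adjusted p = 0.182) and TFB2M, a mitochondrial transcription factor, at 0.42 (adjusted p = 0.0778). CYCS, the cytochrome c that carries electrons between complexes III and IV, differed by 0.19 in either knockdown (adjusted p = 0.343 in HIF-1α and 0.373 in HIF-2α knockdown).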

How the data were processed

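RNA of 12 HepG2 spheroid samples was hybridised to Affymetrix arrays. Per the labels' protocols, RNA was extracted on columns, amplified and labelled with biotin. The authors deposited 1 table of values per probe set, read here as log2 because they run from 5.93 to 15.1; the sources used here do not give the base, background correction, summarization or normalization. With neither counts nor detection calls, precision is limited by how many arrays there are.

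Of 32321 probe sets, 19158 had 1 symbol in the platform annotation, 1388 had several and 11775 had none. Only the first kind was used, 1 probe set per gene, which left 18404 genes. Groups were taken from the labels and fitted together with limma 3.58.1 in R 4.3.3 (lmFit with 1 mean per group, eBayes), with p-values adjusted over all genes within a comparison. They measure the spread between arrays of different spheroid experiments. No filter or pseudocount was applied. The fit was tested on simulated data with independent noise for each gene, which held no shift shared by many genes on an array. How the fit performs under such shifts was not tested. The alternatives were quantile normalization, median centring, leaving out arrays, a replicate block, a filter on dim genes, the mean of probe sets, a variance trend, array weights and members by updated symbols.

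Genes are named where called, where among the 2 largest differences of a complex in a comparison, where groups do not overlap, as isoforms or SDH genes, or by the smallest p in a list; LONP1, NDUFV2, NDUFB7, LYZ, PTPRC and the complex III genes given as a range were named after their values were seen. The members and lists were chosen with earlier results of these data known. The labels do not say that replicate numbers pair the samples. Deviations of same-numbered arrays correlated at -0.17 to 0.64, not all above 0.1, so the samples were treated as unpaired. Promoters come from a RefSeq table (GRCh38.p14).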

Additional observations from a re-analysis of the deposited data

Results flagged for a closer look

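In a group of 4 arrays, a value was listed when its gap to the nearest other array exceeded 0.829 of the group's range. This was so in 14 of 219 groups checked, over named genes and the complexes' median deviations, and chance lists about 1 in 20 such groups.

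Within HIF-2α knockdown, replicate 1 stood apart for 3 members: UQCR10 at 10.15 (others 10.49 to 10.52), COX6B1 at 10.4 (others 10.79 to 10.83) and NDUFS3 at 11.05 (others 10.55 to 10.62). Replicate 4 stood apart for COX4I1, at 9.086 (others 9.142 to 9.151). Within HIF-1α knockdown, replicate 3 stood apart for ATP5MC2, at 9.597 (others 9.318 to 9.337), and for COX8C, at 6.552 (others 6.629 to 6.639). Replicate 1 was low there for BNIP3L, at 10.16 (others 10.43 to 10.47), and for HIGD1A, a hypoxia-induced protein of the inner membrane, at 9.993 (others 10.31 to 10.37). Wild type replicate 3 was high for CYCS, at 8.516 (others 8.149 to 8.203), and for PDK1, at 10.29 (others 9.659 to 9.737).

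The median deviation of complex II stood apart at 0.167 in HIF-1α knockdown replicate 3 (others -0.0288 to -0.0236) and at 0.13 in HIF-2α knockdown replicate 2 (others -0.136 to -0.0982). That of complex IV stood apart at -0.152 in HIF-1α knockdown replicate 4 (others -0.00688 to 0.00561) and at 0.362 in wild type replicate 3 (others -0.0309 to 0.0217).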

How the results depend on the processing

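No result reversed a call. In HIF-1α knockdown against wild type the 1 called member became 4 after quantile normalization (NDUFS6, COX5A, ATP5IF1 and ATP5PO, all lower), 2 with array weights (COX5A and COX6A1), 0 with arrays centred on their medians, 0 without the 3 arrays with a raised floor, and 0 to 2 with 1 array left out. In HIF-2α knockdown against wild type it stayed 0 in all settings. Between the knockdowns, 0 became 2 after quantile normalization (UQCR11 higher and ATP5MG lower in HIF-2α knockdown), 2 with array weights (UQCR11 and ATP5IF1), 1 with dim genes left out, 1 with a variance trend (UQCR11 in both) and 0 to 3 with 1 array left out; the 3 were NDUFA1, NDUFB7 and UQCR11, without HIF-2α knockdown replicate 1. Without the 3 arrays with a raised floor the members' median difference from wild type was -0.207 in HIF-1α and -0.189 in HIF-2α knockdown, and HIF1A differed by -1.24 in HIF-1α knockdown but was not called (adjusted p = 0.103), with only 2 wild type arrays left. EPAS1, HIF-1α knockdown vs wild type, was never called and lay between -0.0860 and 0.0551 with 1 array left out. With the replicate number as a block, called members were 1, 0 and 0 in the 3 comparisons, COX5A being the 1. PDK1 and BNIP3L were called by this fit in HIF-1α knockdown (adjusted p = 0.0058 and 0.0463). Yet against wild type, only HIF-1α knockdown replicates 2 and 3 correlated best with the array of their own number. No HIF-2α knockdown array did so, against wild type or against HIF-1α knockdown. Over all genes, the 177 calls in HIF-1α and 145 in HIF-2α knockdown against wild type ranged from 22 to 605 and from 37 to 404 over the settings, and the 509 between the knockdowns from 211 to 980. The cause of these changes was not tested. Of 3864 values of 65 other named genes under alternatives, 3579 kept sign and call, 186 turned sign with no call, 51 gained and 48 lost a call. Signal near the floor limits the dim isoforms: a level there cannot be told from no signal.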
